A study of Mus musculus with 7 samples.

Results

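Transcripts of 10 G protein-coupled receptors for feeding and limbic peptides were followed in bulk RNA-seq of the mouse medial amygdala, a nucleus of the limbic system involved in social and reproductive behaviour. The set is the rows named Nmur2, Npbwr1, Brs3, Grpr, Nmbr, Prokr2, Calcr, Mc4r, Mc3r and Ghsr among 49164 genes with counts. The genes were picked with the male over female differences of these libraries known, so those differences are given as a description and no test of them is drawn on. The female group held 3 Trap-Ai9 mice given tamoxifen by mouth at 6 weeks (1.5 months in the titles), and the male group 4 Trap-Ai9 mice given it at postnatal day 24. All were 2 months old at sacrifice, and none went without the drug or the reporter. In such mice the promoter of the activity gene Fos drives a Cre recombinase that tamoxifen switches on, so that neurons active at that time keep a red fluorescent label. Tissue with the labelled area, called DIMPLE without further definition, was taken from both hemispheres. The series' design text names postnatal day 24 alone. Sex, age at tamoxifen and the interval to sacrifice cannot be told apart here, and no control piece from outside the labelled area was used here. The labelled area made up 18 to 40% of each piece, so every value is an average over marked and unmarked tissue.

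Most of these receptors answer a known peptide, made by neurons or by peripheral tissue such as the stomach, and act in hunger, arousal, pain or social behaviour. Receptors of the neuromedin U, bombesin and ghrelin families mainly raise intracellular calcium, whereas the melanocortin and calcitonin receptors mainly raise cyclic AMP. In the hypothalamus Mc4r restrains food intake and Ghsr promotes it, and several of the same receptors are also made in the amygdala. In the deposited annotation all 10 members carry the term for G protein-coupled receptor activity, 4 that for neuropeptide receptor activity and 5 that for the neuropeptide signaling pathway.

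Total counts ranged from 29049604 to 46494588 per library. The 4 Y-linked genes checked and Xist separated the libraries as labelled. The 12 medial amygdala markers checked, among them Lhx6, Cyp19a1 and Esr1, had counts in every library, with a summed level of 1529 to 2286 CPM (counts scaled by library size with TMM factors) in females and 1154 to 1965 in males. Tac1 and Gad2 were the most abundant of the 12. Without Tac1 the other 11 summed to 897 to 1581 CPM in females and 669 to 1240.5 CPM in males. Marker genes of other tissue differed in level between the pieces, and the cause was not tested. The summed level of 10 genes of pallial (cortical-type) projection neurons was 116 to 163 CPM in females and 224 to 981 CPM in males. That of 16 hypothalamic genes was 435 CPM in female replicate 3 and 52.9 to 128 CPM in the other libraries, with Hmx2 and Hmx3 at 0 in some libraries. Avp alone gave 264 CPM in female replicate 3. Without Avp the other 15 genes summed to 171 CPM there and to 52.6 to 115 CPM in the other libraries. The summed level of 6 choroid plexus and ependyma genes was 14496 CPM in male replicate 3 and 58.3 to 387 CPM in the other libraries. Values that touch these libraries are given with and without them where they move.

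Per kilobase of exon, Calcr stood highest and the order below it differed between the groups. In females Calcr (45.2 ± 24.7 CPM per kilobase, SD, n = 3) was followed by Brs3 (24.9 ± 6.75), Mc4r (10.5 ± 0.953), Nmbr (7.45 ± 0.815) and Npbwr1 (3.86 ± 2.79). Mc3r (1.47 ± 0.267), Nmur2 (1.43 ± 0.754), Prokr2 (0.452 ± 0.0405), Ghsr (0.306 ± 0.0978) and Grpr (0.247 ± 0.0322) came after. Library values overlapped between the neighbours Calcr and Brs3, Nmbr and Npbwr1, Mc3r and Nmur2, and Ghsr and Grpr. In males Calcr (11.5 ± 9.62 CPM per kilobase, SD, n = 4), Brs3 (7.83 ± 4.21), Mc4r (5.99 ± 1.83) and Nmbr (5.41 ± 1.06) again led, with each overlapping the next. Prokr2 (2.27 ± 1.21) was next in males, and Nmur2 (0.119 ± 0.0678) was the lowest of the 10.

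**Figure D1:**
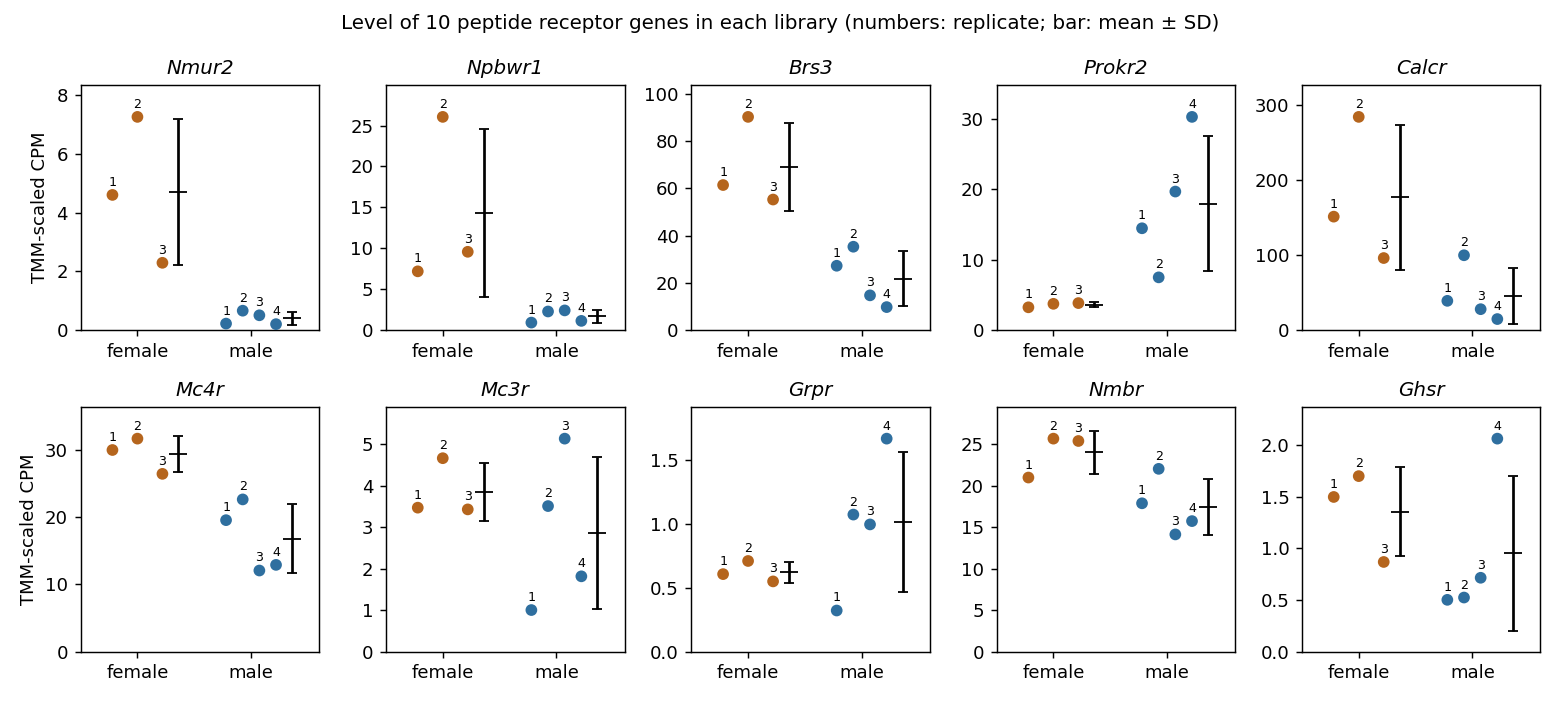
TMM-scaled CPM (linear axis from 0) of the 10 receptor genes, 1 panel a gene, with 1 point per library numbered by replicate and a bar for the mean ± SD of 3 females and 4 males. Females lie above males without overlap for Nmur2, Npbwr1, Brs3 and Mc4r, and below them for Prokr2.

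Nmur2 encodes the neuromedin U receptor of the brain, which binds neuromedin U and neuromedin S. Nmur2 (ENSMUSG00000037393, GRCm39 chr11:55915813-55931836, minus strand) stood at 4.60, 7.27 and 2.29 CPM in females 1 to 3. In males 1 to 4 it stood at 0.215, 0.655, 0.499 and 0.197 CPM, from 6, 25, 23 and 8 counts. Every female lay above every male, and the means were 4.72 ± 2.49 CPM (SD, n = 3) and 0.392 ± 0.224 CPM (SD, n = 4), 12.1-fold apart. Its log2 fold change, male over female, was -3.56 ± 0.53 (SE, edgeR). It entered the test through its female counts. A gene on the opposite strand, Gm12239, overlaps it, and without a stated strand setting their reads cannot be told apart.

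Npbwr1 encodes the receptor of neuropeptides B and W, which couples to inhibitory G proteins. Npbwr1 (ENSMUSG00000033774, chr1:5983926-5987617, minus strand) stood at 7.17, 26.1 and 9.56 CPM in females and at 0.897, 2.25, 2.39 and 1.11 CPM in males. The groups did not overlap, and the means of 14.3 ± 10.3 and 1.66 ± 0.768 CPM were 8.59-fold apart. Female replicate 2 alone stood 3.64-fold above the lowest female. The log2 fold change was -3.09 ± 0.51, and -2.32 without that library.

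The bombesin family has 3 receptors in the mouse, of which Grpr binds gastrin-releasing peptide, Nmbr binds neuromedin B and Brs3 has no natural ligand agreed on. Loss of Brs3 makes mice obese. Brs3 (ENSMUSG00000031130, chrX:56088434-56094118, plus strand) stood at 61.5, 90.4 and 55.3 CPM in females and at 27.2, 35.3, 14.7 and 9.68 CPM in males. The groups did not overlap (69.1 ± 18.7 and 21.7 ± 11.7 CPM), and the log2 fold change was -1.67 ± 0.39. Nmbr stood at 21.0, 25.7 and 25.4 CPM in females and at 17.9, 22.1, 14.1 and 15.7 CPM in males. Male replicate 2 lay inside the female range, and the spread was the narrowest of the 10 receptors, 1.82-fold from the lowest to the highest library. Nmbr overlaps 3 genes on the opposite strand. Grpr stood at 0.608, 0.711 and 0.551 CPM in females and at 0.323, 1.08, 0.998 and 1.67 CPM in males, so its males lay on both sides of the females. The log2 fold changes were -0.46 ± 0.19 for Nmbr and 0.72 ± 0.50 for Grpr, and the family had no shared direction.

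Prokr2, the receptor of prokineticin 2 that is needed for olfactory bulb formation in mice, was the member with the higher level in every male. Prokr2 (ENSMUSG00000050558, chr2:132179653-132227367, minus strand) stood at 3.21, 3.71 and 3.81 CPM in females and at 14.5, 7.47, 19.7 and 30.3 CPM in males. Females varied 1.19-fold and males 4.05-fold, and the means of 3.58 ± 0.321 and 18.0 ± 9.61 CPM were 5.02-fold apart. The log2 fold change was 2.33 ± 0.42.

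The promoters of Nmur2, Brs3 and Prokr2 are shown because these genes had separate groups and lay in both directions. Each is the 250 bases before the start site, 5′ to 3′ on the gene's strand, from RefSeq on GRCm38.p6, a build other than that of the counts. They lie at chr11:56040988-56041237, chrX:57042824-57043073 and chr2:132385448-132385697. Capitals mark a match to a searched motif on either strand.
Nmur2: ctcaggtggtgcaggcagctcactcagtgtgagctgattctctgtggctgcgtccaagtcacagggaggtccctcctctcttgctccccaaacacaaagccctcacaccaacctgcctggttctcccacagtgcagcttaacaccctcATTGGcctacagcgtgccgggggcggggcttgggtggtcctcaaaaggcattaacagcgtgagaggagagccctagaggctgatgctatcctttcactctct
Brs3: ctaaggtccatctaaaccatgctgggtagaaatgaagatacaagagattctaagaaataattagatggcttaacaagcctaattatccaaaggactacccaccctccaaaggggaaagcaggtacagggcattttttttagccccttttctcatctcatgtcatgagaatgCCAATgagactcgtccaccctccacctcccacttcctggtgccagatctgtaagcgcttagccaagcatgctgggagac
Prokr2: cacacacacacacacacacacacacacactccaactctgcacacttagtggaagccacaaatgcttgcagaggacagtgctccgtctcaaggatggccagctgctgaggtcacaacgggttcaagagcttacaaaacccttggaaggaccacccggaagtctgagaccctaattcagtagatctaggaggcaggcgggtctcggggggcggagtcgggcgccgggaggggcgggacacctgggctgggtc
Each window was searched on both strands for 6 motifs. Nmur2 and Brs3 hold CCAAT, which is found in 33.8% of 32817 such windows, and Prokr2 holds none of the 6. Of the others, TATAAA is found in 12.4% of windows. The cyclic AMP response element TGACGTCA is found in 1.55%, and the AP-1 site TGANTCA in 6.75%. The E-box CAGATG is found in 14.5%, and the palindromic estrogen response element in 0.0640%. No motif overlaps another in the windows shown. Of the 10 members, 8 had an entry that could be searched here.

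Calcr encodes the calcitonin receptor, which becomes an amylin receptor when paired with a RAMP protein. Calcr (ENSMUSG00000023964, chr6:3685680-3764714, minus strand) had the widest range of the 10 within a group. It stood at 151, 284 and 95.8 CPM in females and at 38.8, 99.5, 27.6 and 14.5 CPM in males. Male replicate 2 lay above female replicate 3, and males differed 6.88-fold among themselves. The means were 177 ± 96.7 and 45.1 ± 37.6 CPM, and the log2 fold change was -1.97 ± 0.59. It was -2.72 without male replicate 2 and -1.45 without female replicate 2.

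Among receptors of energy balance, Mc4r, the melanocortin receptor that limits food intake, stood at 29.97, 31.7 and 26.4 CPM in females and at 19.5, 22.6, 12.1 and 12.9 CPM in males. The groups did not overlap, at a ratio of means of 1.75 and a log2 fold change of -0.81 ± 0.24. Mc3r, the second melanocortin receptor of the brain, stood at 3.47, 4.67 and 3.43 CPM in females and at 1.00, 3.51, 5.14 and 1.82 CPM in males. Its highest and its lowest library were both males. The log2 fold change of Mc3r was -0.42 ± 0.48, and -0.87 without male replicate 3, the library with the choroid plexus genes. Without male replicate 1 it was -0.14. Ghsr, the ghrelin receptor, stood at 1.50, 1.70 and 0.869 CPM in females and at 0.502, 0.524, 0.716 and 2.06 CPM in males. Only male replicate 4 lay above the females. The log2 fold change of -0.50 ± 0.54 was -1.21 without that library and -0.29 without male replicate 1. Male replicate 4 also had the highest sum of 6 activity-induced genes, 347 CPM against 110 to 205 CPM in the others, and the part of this in the Ghsr value was not tested.

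Over the 10 receptors, 4 had groups that did not overlap with females higher and 1 with males higher. Over all 20420 genes tested these shares were 2.78% and 2.54%, or 5.32% together. The estimate was lower in males for 8 of the 10, against 47.7% of all genes. At a Benjamini-Hochberg adjusted p under 0.05, edgeR's quasi-likelihood test called 0 of the 10, against 0.0245% of all genes, and limma-voom called 0. DESeq2 called 4, against 0.304% of genes with a count. At an unadjusted p under 0.05 edgeR gave 7 of the 10, against 4.71% of all genes. The authors' deposited table marks 4 at an adjusted p under 0.1, with 9.15e-09 for Nmur2, 7.55e-07 for Npbwr1, 1.62e-05 for Prokr2 and 0.0158 for Brs3, against 0.496% of its genes. Since the members were chosen from this contrast, nothing is read from these shares.

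**Figure D2:**
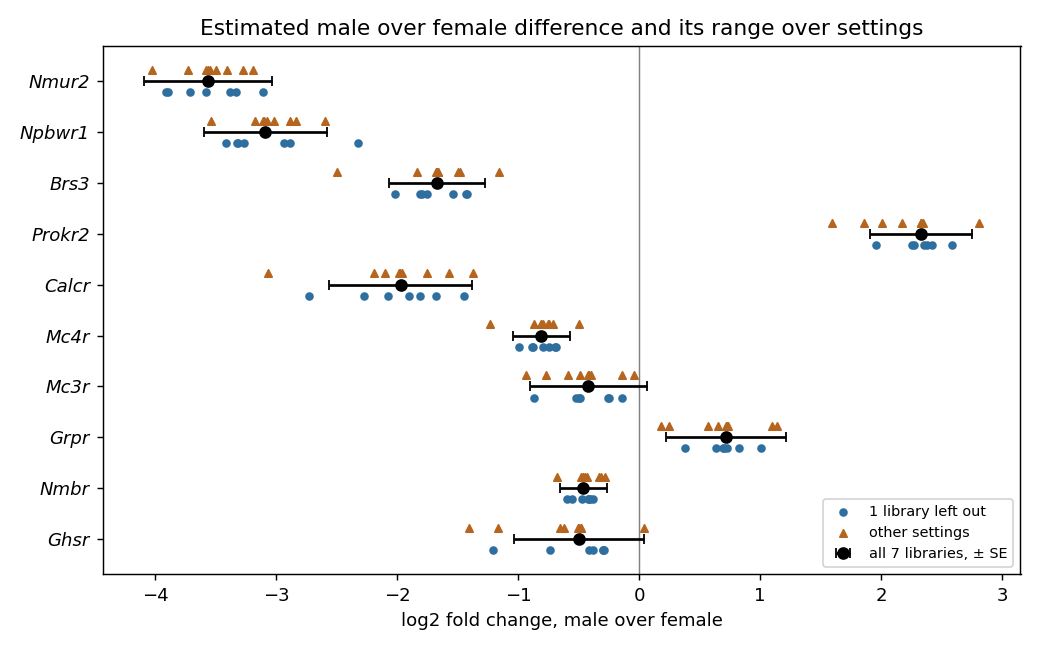
Log2 fold change, male over female (x axis), of the 10 receptors with all 7 libraries (black, ± SE), with 1 library left out (circles) and under the other settings (triangles). Estimates of Nmur2, Npbwr1, Brs3, Calcr, Mc4r, Mc3r and Nmbr lie below 0 in every setting shown. Those of Prokr2 and Grpr lie above 0 in every setting shown. Mc3r comes as near to 0 as -0.046 (percent DIMPLE as a covariate) and Grpr as 0.18 (males 1 and 2 only), while Ghsr reaches 0.039.

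The libraries kept a similar order for several receptors. Female replicate 2 was the highest female for 9 of the 10, and male replicate 2 the highest male for 5 of the 10. Female replicate 2 also had the highest sum of the medial amygdala markers (2286 CPM), and among males replicate 2 did (1965 CPM). Female replicate 3, with the hypothalamic peptides, was not the highest female for any receptor but Prokr2. It was the lowest female for 7 of the 10 (Nmur2, Brs3, Calcr, Mc4r, Mc3r, Grpr and Ghsr). The shares of all genes with these orders were not computed, so these counts are not read as a trait of the receptors.

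Prokr2 and the summed pallial markers ranked the 7 libraries alike. From females 1, 2 and 3 to males 2, 1, 3 and 4, the summed pallial level went 116, 132, 163, 224, 562, 590 and 981 CPM, and Prokr2 was higher at each step. Most of that sum in males was Slc17a7, which encodes a vesicular glutamate transporter (405, 145, 442 and 793 CPM in males 1 to 4). Without it the other 9 genes summed to 67.3 to 75.9 CPM in females and to 157, 78.7, 148 and 188 CPM in males 1 to 4, so the groups still did not overlap but the libraries no longer ranked exactly as for Prokr2. In males Brs3 and Calcr ran the opposite way along the order of the full sum, Brs3 with 35.3, 27.2, 14.7 and 9.68 CPM and Calcr with 99.5, 38.8, 27.6 and 14.5 CPM. Npbwr1 and Nmur2 did not follow it among males, where replicate 1 lay near replicate 4. Of the 10 pallial genes, 8 had a higher estimate in males and 0 passed the edgeR test, with 6 at an unadjusted p under 0.05. Of the 12 medial amygdala markers all had a lower estimate in males, 0 passed and 2 had an unadjusted p under 0.05. Of 8 myelin genes all had a higher estimate in males (summed level 1391 to 3102 CPM in females and 2646 to 8840 CPM in males), with 0 passing and 5 at an unadjusted p under 0.05. In bulk tissue fewer cells of a type and less RNA per cell cannot be told apart, and the part of these marker lists in the receptor differences was not tested.

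**Figure D3:**
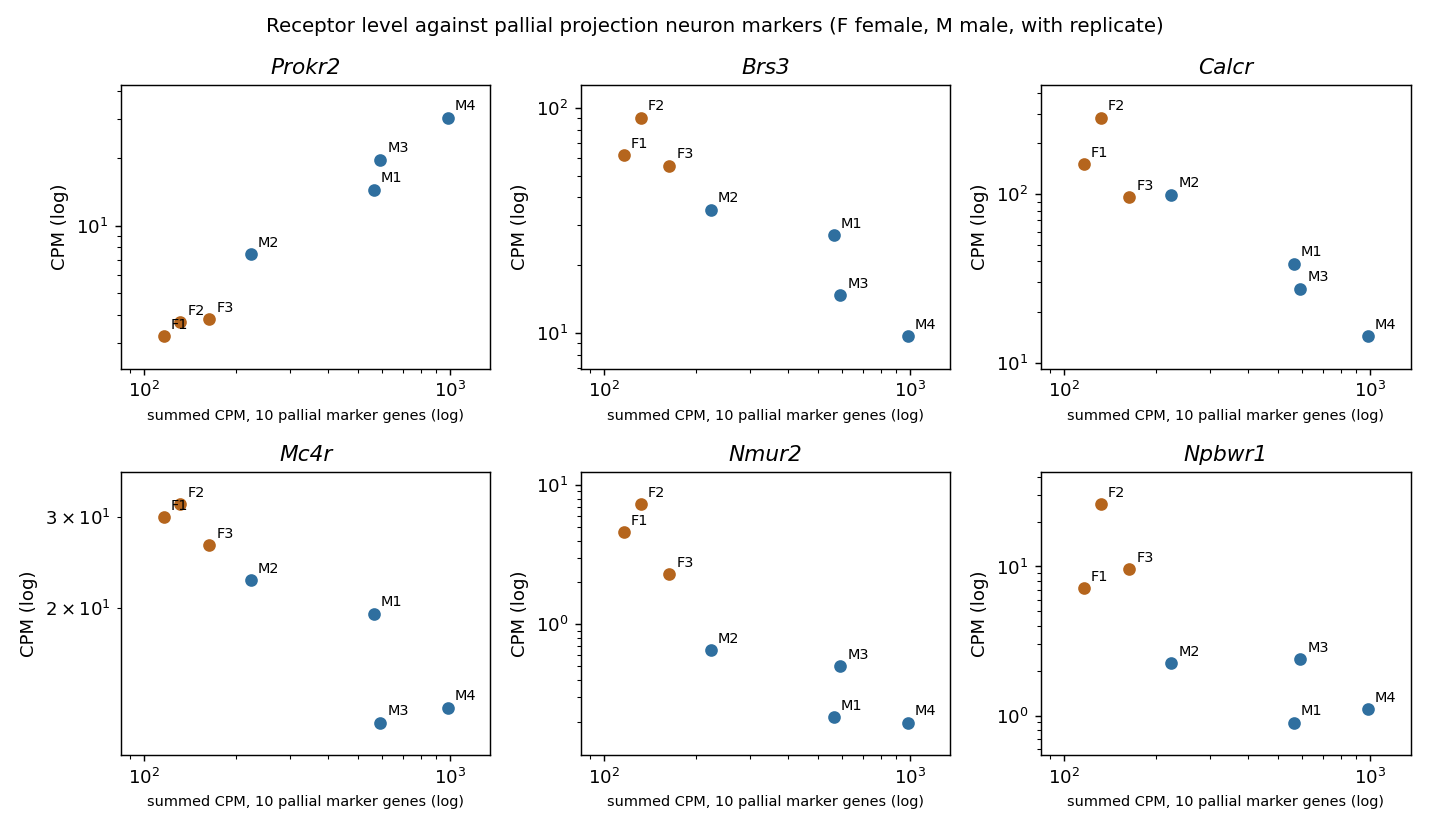
CPM of 6 receptors (y axis, log scale) against the summed CPM of 10 pallial projection neuron genes (x axis, log scale), with 1 point per library (F female, M male, with the replicate number). Prokr2 goes from 3.21 CPM at the lowest pallial sum to 30.3 CPM at the highest, and among the 4 males Brs3 and Calcr are lower at each higher sum.

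Receptors were compared with 15644 genes with a mean of at least 1 CPM. The measure was the root mean square difference of centred log2 CPM over the 7 libraries. It takes in the male over female difference by which the members were chosen. Receptors with a like difference therefore lie close in part by that choice, and likeness within each sex was not computed. The gene nearest to Nmur2 was Npbwr1 (0.50 log2 units), followed by Pgr15l (0.71) and Calcr (0.82). After Nmur2, those nearest to Npbwr1 were Mapk13 (0.65) and Pgr15l (0.78). Those nearest to Calcr were Pgr15l (0.29), Tnfrsf8 (0.36) and Brs3 (0.42). Those nearest to Prokr2 were Fezf2 (0.14), a transcription factor of deep-layer projection neurons that is also on the pallial list, Prdm8 (0.25) and the chemokine gene Cxcl12 (0.27). Fezf2 stood at 4.86, 5.04 and 5.28 CPM in females and at 23.4, 8.57, 29.2 and 41.6 CPM in males.

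The column names of the males, which the labels do not explain, split them into males 1 and 2 (mv) and males 3 and 4 (mb). Of the 10 receptors, 4 (Brs3, Calcr, Mc4r and Nmbr) were higher in both mv libraries than in both mb libraries, against 16.6% of all genes tested. Prokr2 and Ghsr, 2 of the 10, were lower in both, against 18.1% of all genes. Against the females, the log2 fold change of Brs3 was -1.16 for mv and -2.50 for mb, that of Calcr -1.37 and -3.07, that of Prokr2 1.59 and 2.81, and that of Ghsr -1.41 and 0.039.

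Within sex, the receptors were next set against the percent DIMPLE of the piece. The slope, fitted by edgeR with sex in the model and given as log2 units per 10 percentage points, rests mostly on the males (40, 18, 32 and 29%), since females spanned 20 to 25%. No receptor passed at an adjusted p under 0.05, against 0.0% of all 20420 genes, and 0 of the 10 had an unadjusted p under 0.05, against 4.54%. DESeq2 and limma-voom called 0 of the 10 as well. The estimate was negative for 9 of the 10 and for 48.4% of all genes. Calcr had the steepest estimate (-0.65 ± 0.36, SE, edgeR adjusted p = 0.897), followed by Npbwr1 (-0.61 ± 0.41), Grpr (-0.61 ± 0.45) and Nmur2 (-0.58 ± 0.43). Prokr2 had the only positive estimate (0.36 ± 0.40, edgeR adjusted p = 0.900). The signs rested on single males. Without male replicate 2 the slope was 0.93 for Brs3, 0.74 for Calcr and -0.83 for Prokr2, and without male replicate 1 it was -0.998, -1.44 and 1.05. Brs3 in males ordered by percent DIMPLE (18, 29, 32 and 40%) was 35.3, 9.68, 14.7 and 27.2 CPM, with the lowest level in the middle.

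**Figure D4:**
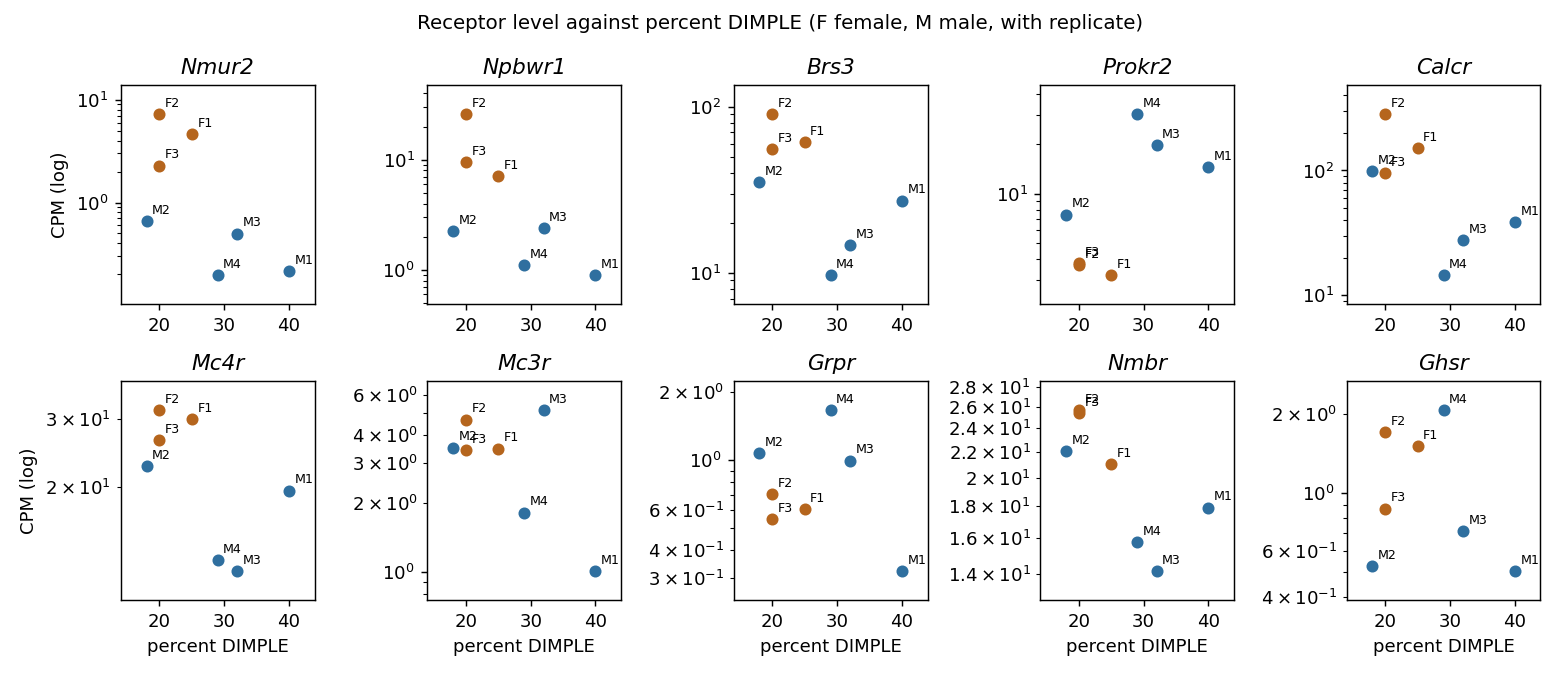
CPM (y axis, log scale) of the 10 receptors against the percent DIMPLE of the dissected piece (x axis), with 1 point per library (F female, M male, with the replicate number). Male replicate 2 at 18% and male replicate 1 at 40% are the ends of the range, and Brs3 is lower in the males at 29 and 32% than at both ends.

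The ligands, accessory proteins and closest receptor relatives of the 10, 36 genes in the table, gave the other side of these systems. Of the 23 tested, 0 passed at an adjusted p under 0.05 in the male over female comparison by edgeR, DESeq2 or limma-voom. Over all genes edgeR called 0.0245% and DESeq2 0.304%. The 5 genes edgeR called were Xist and the 4 Y-linked genes checked, so missing this threshold does not show equal levels. At an unadjusted p under 0.05 edgeR gave 5 of the 23, against 4.71% of all genes. For the slope 0 passed by any of the 3 tools. The median log2 fold change was -0.06 over the 16 ligands and accessory proteins tested, 0.08 over the 7 relatives and 0.01 over all genes.

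Of the ligands, Grp, which encodes gastrin-releasing peptide, stood at 8.84, 9.55 and 8.03 CPM in females and at 3.59, 4.88, 2.49 and 6.53 CPM in males. The groups did not overlap, but the difference missed the threshold (log2 fold change -1.01 ± 0.32, edgeR adjusted p = 0.792). Its receptor Grpr had the opposite sign of estimate, with groups that did overlap. Prok2, which encodes the ligand of Prokr2, averaged 4.65 ± 1.34 CPM over the females and 6.65 ± 0.886 CPM over the males (log2 fold change 0.52 ± 0.26, edgeR adjusted p = 1.00). Nmb, encoding neuromedin B, stood at 3.61 ± 1.12 and 3.78 ± 2.14 CPM, a difference within the spread. Pomc, the precursor of the melanocortin agonists, stood at 9.81 CPM in female replicate 3 and at 1.14 to 3.30 CPM in the others. Its highest library was thus the one with the highest hypothalamic sum, which itself includes Pomc. Agrp, encoding the melanocortin antagonist, averaged 0.857 ± 0.450 and 0.272 ± 0.164 CPM.

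Transcripts of several ligands were near the limit of detection. Npw, for the Npbwr1 ligand neuropeptide W, had 5 counts over all libraries and 0 in 5 of them. A count of 0 allows up to 0.0636 to 0.108 CPM, depending on the library (3 counts, counting error only). Nms had 36 counts in all, Ghrl 18 and Iapp, which encodes amylin, 15. Nmu was tested, at 0.0309 to 0.418 CPM. The values cover RNA in the dissected piece, and peptide was not measured.

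Among accessory proteins the RAMPs, which set the ligand choice of Calcr and Calcrl, had estimates on both sides of 0, and none passed the test. Ramp1 averaged 103 ± 31.1 CPM over the females and 136 ± 46.3 CPM over the males, Ramp2, which is abundant in blood vessels, at 20.6 ± 4.01 and 32.0 ± 8.16 CPM, and Ramp3 at 8.35 ± 0.498 and 5.64 ± 1.66 CPM. Their log2 fold changes were 0.39 ± 0.29, 0.64 ± 0.24 and -0.56 ± 0.26, with edgeR adjusted p-values of 1.00, 0.888 and 1.00. Mrap2, which modulates melanocortin and ghrelin receptors, stood at 34.0, 37.7 and 36.05 CPM in females and at 24.0, 27.8, 31.1 and 23.1 CPM in males. Its groups did not overlap, as with Mc4r, and the difference missed the threshold (log2 fold change -0.44 ± 0.16, edgeR adjusted p = 0.888). Attractin (Atrn, 80.4 ± 32.1 and 75.3 ± 18.1 CPM) and its relative Atrnl1 (19.7 ± 5.39 and 24.8 ± 5.54 CPM) differed by less than their spread, as did Adm, which encodes adrenomedullin (log2 fold change -0.02 ± 0.46).

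Of the closest relatives of the 10 receptors, 7 were tested and 0 passed. Nmur1 and Prokr1, the paralogs of Nmur2 and Prokr2, had 21 and 26 counts over the 7 libraries and were not tested. Calcrl, the CGRP and adrenomedullin receptor, averaged 12.6 ± 4.39 CPM over the females and 14.9 ± 3.14 CPM over the males. Mc1r (5.97 ± 2.63 and 6.35 ± 3.03 CPM) and Mc5r (3.15 ± 0.265 and 2.47 ± 0.637 CPM) differed by about their spread or less. Ntsr1 stood at 6.62 ± 1.78 and 7.66 ± 2.02 CPM, Ntsr2 at 219 ± 16.9 and 200 ± 39.5 CPM, and Oprl1 at 115 ± 20.5 CPM in females and 77.8 to 112 CPM in males. Sstr2, a somatostatin receptor, was higher in every male (15.8, 14.1, 15.6 and 29.1 CPM) than in the females (13.4, 9.74 and 11.7 CPM), with a log2 fold change of 0.68 ± 0.28 that missed the threshold (edgeR adjusted p = 0.969).

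Of 40 other peptide receptors of feeding and limbic circuits 36 were tested, and 0 passed in either comparison by edgeR. Male over female, 15 estimates were above 0 and 21 below it (median -0.08 on the log2 scale). At an unadjusted p under 0.05 edgeR gave 8 of the 36, 4 above 0 and 4 below it, against 4.71% of all genes over both directions. The 3 most abundant of these other receptors by CPM were Adcyap1r1, the PACAP receptor (261 ± 109 CPM over the females and 201 ± 67.6 CPM over the males), Trhr (87.6 ± 16.9 and 135 ± 44.8 CPM) and Npy2r (58.1 ± 22.2 and 91.3 ± 26.3 CPM). None of these 3 differed past the threshold. In this list the groups did not overlap for Oxtr, Avpr1a and Sstr5 alone, against 5.32% of all genes tested. Oxtr was higher in every male (log2 fold change 1.06 ± 0.25, edgeR adjusted p = 0.508). Avpr1a (-1.57 ± 0.44, edgeR adjusted p = 0.651) and Sstr5 (-1.27 ± 0.36, edgeR adjusted p = 0.667) were higher in every female.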

How the data were processed

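The deposited table holds raw read counts per gene for 3 female and 4 male libraries, as the authors deposited them. Cutadapt, TopHat2 2.2.1, HTSeq 2.0.1 and GRCm39 are named, without roles, per the submitters' processing notes. The signal columns are the authors' counts after DESeq2 normalisation, per the file headers, and were not used for tests. The same deposited table gives p-values and log2 fold changes from a comparison of females with males, made with DESeq2 per the file headers (version 1.26.0 in the submitters' processing notes). The strand setting is not given in the sources used here.

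Of 55414 rows, 49164 had counts, and the 6250 without were left out. Counts were filtered with filterByExpr (minimum count 10, minimum total 15), leaving 20420 genes, scaled by TMM and tested with the quasi-likelihood test of edgeR 4.0.16 in R 4.3.3, male over female and for percent DIMPLE with sex in the model. P-values were adjusted over all genes tested by the Benjamini-Hochberg method, with a threshold of 0.05. Standard errors are the log2 estimate divided by the square root of the F statistic. Fits were checked on simulated data. DESeq2 1.42.0, limma 3.58.1 (voom), no filter, a replicate block, other subsets of the males and leaving out each library were alternatives. The labels say only that the samples are separate, so p-values measure the spread between these samples. Receptors and gene lists were chosen with earlier results of these data known. Members were all named, and of their partners those with a mean of at least 1 CPM, plus Agrp, Nmu and untested ligands and relatives named after their values were seen. Of the other peptide receptors, Oxtr, Avpr1a and Sstr5 were also named after their values were seen. Members were matched to other genes over all 7 libraries, and the 3 nearest genes are given for the members with the widest range. Promoter sequences are from RefSeq.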

Additional observations from a re-analysis of the deposited data

Results flagged for a closer look

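For 40 genes or list sums, the 4 males were searched for a library farther from the rest than Dixon's critical value of 0.829 allows. Of the 40, 5 were flagged. All were read in the same 4 males and are not independent, so the number flagged cannot be set against a chance rate. Ghsr stood at 2.06 CPM in male replicate 4, with a gap to the next male of 0.863 of the group's range. Sstr2 stood at 29.1 CPM in the same library (0.888 of the range), and so did the sum of the 6 activity-induced genes, at 347 CPM (0.945). Male replicate 3 was apart for the sum of the 8 striatal markers, at 292 CPM (0.870), of which Ppp1r1b gave 234 CPM. The other 7 genes summed to 58.4 CPM there, to 37.4 to 60.2 CPM over all males and to 69.4 to 89.6 CPM over the females. Male replicate 3 was also apart for the sum of the 6 choroid plexus and ependyma genes, at 14496 CPM (0.994).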

How the results depend on the processing

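Male over female, edgeR called 5 genes and 0 of the 10 receptors. Without the low-count filter it called 12 genes and 2 receptors (Nmur2 and Prokr2). DESeq2 called 122 and 4 (Nmur2, Npbwr1, Brs3 and Prokr2). With only the mb males the counts were 48 and 2 (Brs3 and Prokr2). Leaving out 1 library gave 4 to 26 genes and 0 to 1 receptors, the highest being without male replicate 2, where Prokr2 was called. Without female replicate 3 and male replicate 3 together, an alternative chosen after seeing the data, the counts were 4 and 0. Over 16 settings no receptor's fold change turned sign but that of Ghsr, at 0.039 with the mb males.

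Shared replicate numbers were not treated as pairs in the main fit. The deviations of same-numbered libraries correlated at 0.307, 0.169 and 0.0318 over genes, and those of differently numbered libraries at -0.465 to 0.303. With so few libraries these values cannot decide whether the numbers pair them. With a replicate block edgeR called 27 genes and 4 receptors (Nmur2, Npbwr1, Brs3 and Calcr), and for the slope 9 genes. Without the low-count filter the slope gave 15 genes against 0. No setting called a receptor for the slope. With the replicate block the slope turned to 0.0049 for Nmur2, 0.58 for Npbwr1 and 0.38 for Ghsr, and limma-voom gave 0.057 for Ghsr.

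Leaving out 1 library, slopes ranged from -0.998 to 0.93 for Brs3, -0.83 to 1.05 for Prokr2, -1.44 to 0.74 for Calcr, -0.57 to 0.48 for Mc4r, -1.19 to 0.094 for Mc3r, -1.66 to 0.11 for Grpr, -0.47 to 0.044 for Nmbr and -1.23 to 0.82 for Ghsr, turning sign without male replicate 2 or 1. The slope of Ghsr, -0.019 with all libraries, turned sign in 6 of its 12 alternative settings. The cause of these changes of sign was not tested. Nmur2 in males rests on 6 to 25 counts a library, which limits the precision of its fold change.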
